A study of Homo sapiens with 8 samples.

Results

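The transcripts described here are 6 repressors of the epithelial state (ZEB1, ZEB2, SNAI1, SNAI2, TWIST1 and TWIST2) and the classical cadherins CDH1 and CDH2. They were taken by symbol, and all 8 were found among the 56638 entries of each deposited comparison. RNA was sequenced from A375, a human malignant melanoma line, in 4 transfected groups of 2 libraries each. Cells received the expression plasmid pcDNA3.1(-) carrying full-length SLNCR1 (a long noncoding RNA tied to melanoma invasion), carrying SLNCR1 without its conserved region (delta-conserved), carrying the conserved region alone, or carrying no insert (vector). The plasmid was delivered with Lipofectamine 24 h after seeding, and cells were harvested 48 h later, so all groups share the line, its medium with 10% serum, the plasmid backbone and the reagent. The constructs separate the conserved region from the remainder of the RNA. Whether replicate libraries are separate cultures is not stated in the labels, so p-values reflect only the spread between these libraries, which may be technical.

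In an epithelial-to-mesenchymal transition (EMT), cells lose E-cadherin junctions and gain motility. ZEB, SNAI and TWIST factors bind E-box motifs in DNA and repress epithelial genes, E-cadherin (CDH1) first among them. N-cadherin (CDH2) often takes its place. Melanocytes come from the neural crest, and in melanoma ZEB2 and SNAI2 are known as factors of the melanocytic state, while ZEB1 and TWIST1 mark dedifferentiated, invasive states. The factors are also held in check after transcription, the ZEB transcripts by microRNAs of the miR-200 family.

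Gene-assigned reads came to 9090649 and 10097194 in the SLNCR1 libraries, 8222868 and 9187241 with delta-conserved, 10280456 and 11340089 with the conserved region, against 11321294 and 12015394 with vector. Below, library a of a group is the deeper one and library b its partner. RefSeq lists SLNCR1 as a synonym of LINC00673, a name that is not among the deposited entries, and the gene span of LINC00511 in GENCODE release 29 covers that of LINC00673. The sources used here do not say which exons the deposited LINC00511 entry counts. LINC00511 was higher than in vector by a log2 of 0.49 ± 0.10 with SLNCR1 (limma adjusted p = 0.0044), 0.68 ± 0.10 with delta-conserved (limma adjusted p = 0.000296) and 0.81 ± 0.10 with the conserved region (limma adjusted p = 0.00278, SE, n = 2 each). The SLNCR1 call was lost without vector library a (limma adjusted p = 0.0627). With the conserved region it was the only gene called, and limma called 0 genes there without vector library a or without vector library b. The authors' deposited table gave LINC00511 with delta-conserved an adjusted p of 0.145. The melanocyte lineage was checked through its defining genes. SOX10, a neural crest factor, had 2940 to 3704 normalized counts over the 8 libraries and MITF 539.7 to 791, while the pigment enzyme genes TYR and DCT had 5 and 16 reads in all. SOX10 was called higher than in vector with SLNCR1 (log2 0.22, limma adjusted p = 0.0496) and delta-conserved (log2 0.26, limma adjusted p = 0.0286), and both calls were lost without vector library a or without any library of delta-conserved or the conserved region, the first also without SLNCR1 library b (limma adjusted p = 0.0801 to 0.321 and 0.052 to 0.232). MITF was not called against vector with any construct, but was called in 2 comparisons between constructs in which ZEB2 was also called. In each of the 2, 3 of the 6 tested lineage markers had a log2 above 0 and 3 below. It was lower with SLNCR1 than with the conserved region (log2 -0.36, limma adjusted p = 0.0172), a call lost without SLNCR1 library b or either conserved-region library (limma adjusted p = 0.0709 to 0.18). It was higher with the conserved region than with delta-conserved (log2 0.39, limma adjusted p = 0.0156), a call lost without delta-conserved library a or either conserved-region library (limma adjusted p = 0.0733 to 0.227). Of markers of other cells, LOR and DSG3 (keratinocyte) and PECAM1 (endothelium) had no read in any library, which allows up to 3 reads per library, but other markers were read. The filter on the mean left 6 of 10 melanocyte lineage and 9 of 10 fibroblast markers. It left 3 of 10 keratinocyte, 3 of 8 endothelial and 4 of 8 leukocyte markers. The 10 keratinocyte markers summed to 794 to 859 normalized counts with SLNCR1, 794 to 854 with delta-conserved, 841 to 885 with the conserved region and 827 to 863 with vector. The summed level of 8 leukocyte markers was 208 to 236 normalized counts with SLNCR1, 203 to 215 with delta-conserved, 268 to 303 with the conserved region and 235 to 287 with vector, with ITGAM called lower with SLNCR1 and delta-conserved. In the same 2 comparisons limma called COL17A1, 1 of 10 keratinocyte markers, lower. The part of these markers in the results below was not tested.

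The miR-200 family sets the sequence context of the ZEB transcripts. Its members are shown because they fall into 2 groups by the seed, bases 2 to 8 of the mature RNA (capitals), and both groups have matches in ZEB1 and ZEB2 (mature sequences from RefSeq, GRCh38.p14).
hsa-miR-200b-3p: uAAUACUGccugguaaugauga
hsa-miR-200c-3p: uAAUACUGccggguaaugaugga
hsa-miR-429: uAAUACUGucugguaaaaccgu
hsa-miR-200a-3p: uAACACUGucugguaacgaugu
hsa-miR-141-3p: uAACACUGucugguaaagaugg
The 2 seeds differ at 1 base. The 3′ UTR of ZEB1 (chromosome 10, 2549 bases in its longest form in GENCODE release 29) held 6 matches to the first seed and 3 to the second, and that of ZEB2 (chromosome 2, 5370 bases) held 5 and 4. Among 18835 genes with a 3′ UTR, 16.3% had any match to the first seed and 18.6% any to the second. As many as in ZEB1 were found in 0.0159% of genes for the first seed and 1.06% for the second. As many as in ZEB2 were found in 0.0372% and 0.308%. These shares do not take the length of the 3′ UTR into account. Per kilobase, ZEB1 held 2.35 and 1.18 matches to the 2 seeds and ZEB2 0.93 and 0.74, against 0.117 and 0.135 over all genes. Examples follow on the transcript's strand, with the bases that pair with the seed in capitals.
ZEB1 first seed: atgctaaatccgcttCAGTATTt
ZEB1 second seed: caaaatcatcagaatCAGTGTTt
ZEB2 first seed: cgcactaccatacatCAGTATTt
ZEB2 first seed, next site: cgcactacaatgcatCAGTATTa
ZEB2 second seed: agtgccatccttgtaCAGTGTTa
A match is a description of the letters and not evidence of a working site. Mature microRNAs are not measured in poly(A)-selected libraries. The entries of the microRNA genes themselves, MIR200B, MIR200C, MIR141 and MIR429, had 0 reads in all 8 libraries together and MIR200A had 1 read.

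A promoter is shown for ZEB1 because, of the members with a RefSeq window, it alone held the E-box CACCTG, a motif that ZEB and SNAI proteins bind. RefSeq gives 7 start sites for ZEB1. The 250 bases before the most upstream one, chr10:31318167-31318416 on the plus strand of GRCh38.p14, held 1 match, read here as its complement CAGGTG (capitals; both strands were searched), 57 bases before the start. Exons of the antisense gene ZEB1-AS1 also lie there.
ZEB1 upstream: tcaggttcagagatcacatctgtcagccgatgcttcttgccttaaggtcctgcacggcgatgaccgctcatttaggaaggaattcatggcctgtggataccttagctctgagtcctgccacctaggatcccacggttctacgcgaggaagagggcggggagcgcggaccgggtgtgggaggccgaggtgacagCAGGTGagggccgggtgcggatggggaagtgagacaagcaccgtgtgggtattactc
The window of the third start site held 2 matches, at positions -242 and -85 from the start. No match was found in the other 5 ZEB1 windows, nor in the windows of ZEB2 (1), TWIST2 (1) and CDH2 (2). No window was searched for SNAI1, SNAI2, TWIST1 or CDH1. ZEB1 had the most windows and so the most room for a match. Over 35116 windows of the same length, 17.5% held at least 1 match and 2.53% at least 2.

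In every library CDH2 was the highest member and CDH1 the lowest per kilobase. Per kilobase of merged exons, the mean over all 8 libraries was 343 ± 14.8 normalized counts for CDH2 (SD, n = 8), which placed it above 94.1% of 24987 entries with a read and a known length. SNAI1 followed at 224 ± 6.41 per kilobase and TWIST1 at 129 ± 10.1. TWIST2 stood at 86.9 ± 11.5 per kilobase and ZEB1 at 82.1 ± 9.67, and these neighbours overlapped between libraries. ZEB2 came next at 17.3 ± 3.61 per kilobase, a value lowered by its 25058 bases of merged exons, since per kilobase of its longest coding transcript (9583 bases) it was 45.3. SNAI2 stood at 5.1 ± 1.21 per kilobase and CDH1 at 0.112 ± 0.127. Apart from TWIST2 and ZEB1, no neighbours in this order overlapped between libraries. Counts within a gene are compared below as normalized counts, which are reads divided by a size factor of the library.

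**Figure D1:**
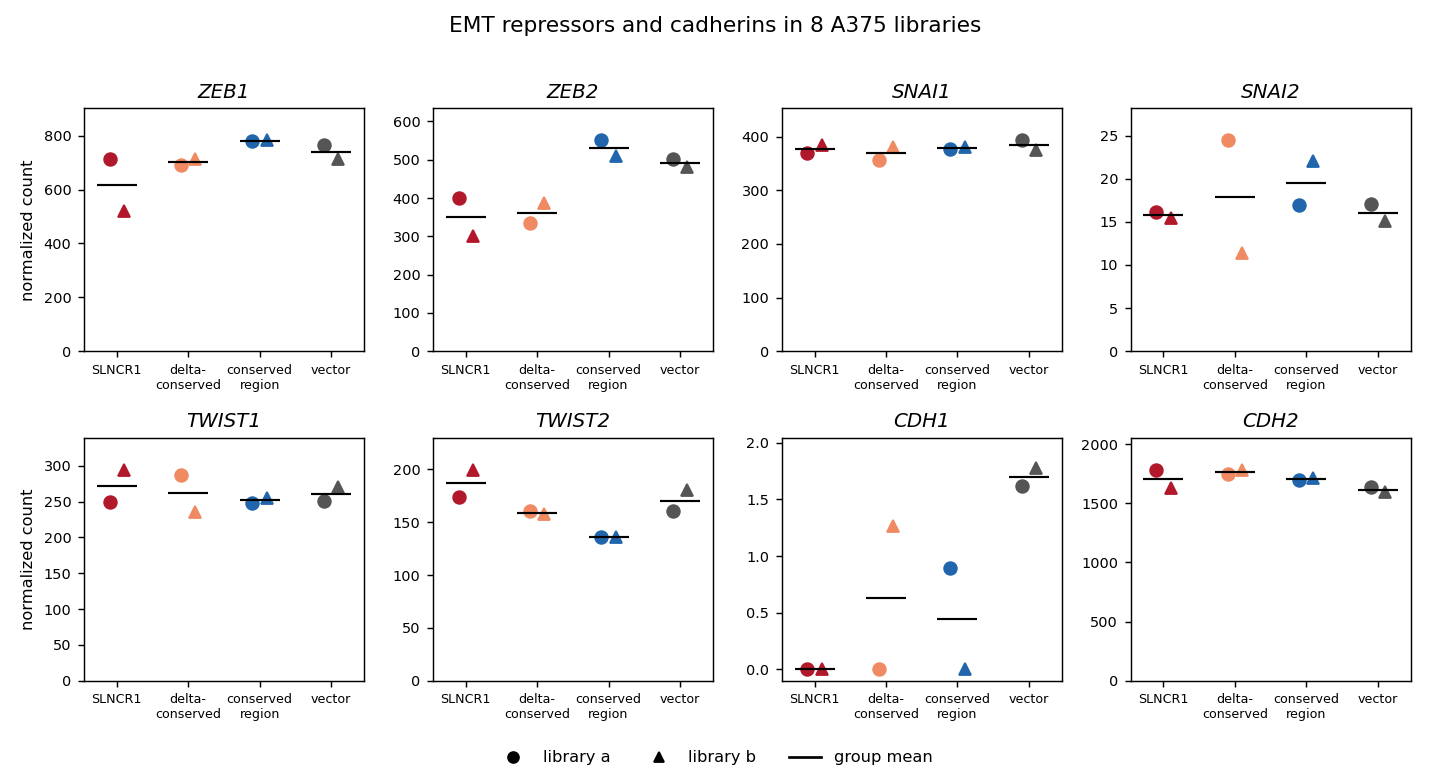
Normalized counts (y axis, linear, from 0; CDH1 from just below 0) of the 8 genes in each library, with circles for library a, triangles for library b and lines for the mean of 2. The ZEB2 points of SLNCR1 and delta-conserved cells lie between 301 and 399.5, all below the 481 to 551 of conserved-region and vector cells.

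Differences between groups were estimated with limma on log2(normalized count + 1) over all 4 groups, with p-values adjusted over the 16073 genes that had a mean of at least 10. This filter left 7 of the 8 members, all but CDH1, and each of the 7 also had a mean above 10 in every group. In bulk RNA, fewer cells with a transcript and less of it per cell cannot be told apart.

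ZEB2, a zinc finger repressor, was lower with full-length SLNCR1 and with delta-conserved, and not with the conserved region alone. It had 399.5 and 301 normalized counts in SLNCR1 libraries a and b, 335 and 388 with delta-conserved, 551 and 511 with the conserved region, against 503 and 481 with vector. All 4 libraries with SLNCR1 or delta-conserved lay below all 4 others. Against vector the log2 difference was -0.50 ± 0.11 with SLNCR1 (SE, n = 2 each, 95% interval -0.74 to -0.26, limma adjusted p = 0.00992), a fold of 0.706. With delta-conserved it was -0.45 ± 0.11 (interval -0.68 to -0.21, limma adjusted p = 0.0176), a fold of 0.733. With the conserved region it was 0.11 ± 0.11 (interval -0.13 to 0.35, limma adjusted p = 0.879). The authors' deposited table gave a log2 of -0.45 and an adjusted p of 0.0108 for delta-conserved, so ZEB2 passed there too. For SLNCR1 the authors' deposited table gave -0.49 with an adjusted p of 0.285 (unadjusted p = 0.00535), which missed the threshold.

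The constructs were also set against each other directly for ZEB2. It was lower with SLNCR1 than with the conserved region by a log2 of -0.61 ± 0.11 (interval -0.85 to -0.37, limma adjusted p = 0.00147). It was 1.47-fold higher with the conserved region than with delta-conserved (log2 0.56 ± 0.11, interval 0.32 to 0.80, limma adjusted p = 0.00436). Between SLNCR1 and delta-conserved the difference was -0.05 ± 0.11 (interval -0.29 to 0.18, limma adjusted p = 0.927), which leaves room for a difference of up to 0.29 in one direction and 0.18 in the other. Leaving out single libraries changed several of these calls. The SLNCR1 call against vector was lost without vector library a (log2 -0.46, limma adjusted p = 0.152) or SLNCR1 library b (log2 -0.30, limma adjusted p = 0.0793). The delta-conserved call was lost without vector library a (limma adjusted p = 0.173), vector library b (limma adjusted p = 0.0608), delta-conserved library a (limma adjusted p = 0.182) or its library b (limma adjusted p = 0.0538), with a log2 between -0.34 and -0.55. That between the conserved region and delta-conserved was lost without delta-conserved library a (log2 0.45, limma adjusted p = 0.108) or conserved-region library a (log2 0.51, limma adjusted p = 0.0726). The call between SLNCR1 and the conserved region held in all 8 of these fits. Without limma's variance trend every ZEB2 call was lost, that one at a limma adjusted p of 0.0956. For SLNCR1 against vector it was 0.171, and 0.0792 with no filter on low counts. The delta-conserved call against vector was also lost with no filter.

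ZEB1, the closest relative of ZEB2, had 714 and 522 normalized counts with SLNCR1, 691 and 712 with delta-conserved, 779 and 784 with the conserved region, against 765 and 715 with vector. SLNCR1 library b was the low library, and the other 7 lay between 691 and 784. ZEB1 did not pass against vector, with a log2 of -0.28 ± 0.10 for SLNCR1 (limma adjusted p = 0.0899), -0.08 ± 0.10 for delta-conserved (limma adjusted p = 0.724) and 0.08 ± 0.10 for the conserved region (limma adjusted p = 0.905). In the authors' deposited table its adjusted p was 1.0 in all 3 comparisons. It was lower with SLNCR1 than with the conserved region (log2 -0.36 ± 0.10, interval -0.57 to -0.14, limma adjusted p = 0.034). That call rested on 1 library, since without SLNCR1 library b the log2 was -0.13 (limma adjusted p = 0.422). It was also lost without vector library a or b, delta-conserved library a or b, or conserved-region library a or b, at adjusted p-values of 0.052 to 0.16 by limma. Without SLNCR1 library a, only the low library was left in the group, and ZEB1 was called lower than in vector (log2 -0.50, limma adjusted p = 2.04e-05) and lower than with delta-conserved (log2 -0.42, limma adjusted p = 0.000508).

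Transcript length moved with the SLNCR1 libraries in a way that touches the ZEB and TWIST genes. Over 12701 genes, the median difference of SLNCR1 library b from library a was 0.13 on the log2 scale in the length group with the shortest coding transcripts (4 groups of like size) and -0.17 in that with the longest. The other groups had medians of -0.03 to 0.08 in all 4. From the shortest to the longest, the median fell from 0.08 to -0.03 with vector and from 0.05 to -0.007 with the conserved region. With delta-conserved it was 0.007 in the shortest and 0.03 in the longest. SLNCR1 against vector had a median of 0.12 in the shortest and -0.12 in the longest length group, delta-conserved one of 0.06 and -0.02, and the conserved region 0.03 in both. ZEB1 (6267 bases) and ZEB2 (9583 bases) belong to the longest group, which starts at 5287 bases. In SLNCR1 library b they stood -0.45 and -0.41 on the log2 scale from library a, and 5.39% and 6.67% of genes had a lower value. TWIST1 (1666 bases) and TWIST2 (1404 bases) belong to the shortest group. They stood 0.24 and 0.20 above library a, with 91.1% and 87.4% of genes below them. SNAI1 (1686 bases), also in the shortest group, stood only 0.06 above library a, under that group's median of 0.13 (60.4% of genes below). SNAI2 (2428 bases) stood -0.06 from library a, in a length group with a median of 0.05 (37.6% of genes below). CDH2 (4332 bases) stood -0.13 from library a, in a length group with a median of -0.03 (26.7% of genes below). SLNCR1 against the conserved region, where ZEB1 and ZEB2 were called lower and TWIST2 higher, had a median of 0.11 in the shortest and -0.13 in the longest group. With delta-conserved the ZEB2 difference against vector was -0.45, in a comparison where the longest group had a median of -0.02. The part of transcript length in the results for ZEB1, ZEB2 and TWIST2 was not tested with any construct. Nor was it tested for the genes of the lists described below. Of those called lower with SLNCR1, some, such as NUAK1 and LATS2, were lower in SLNCR1 library b than in library a. Others, such as ARVCF and PVRL4, were higher in library b.

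**Figure D2:**
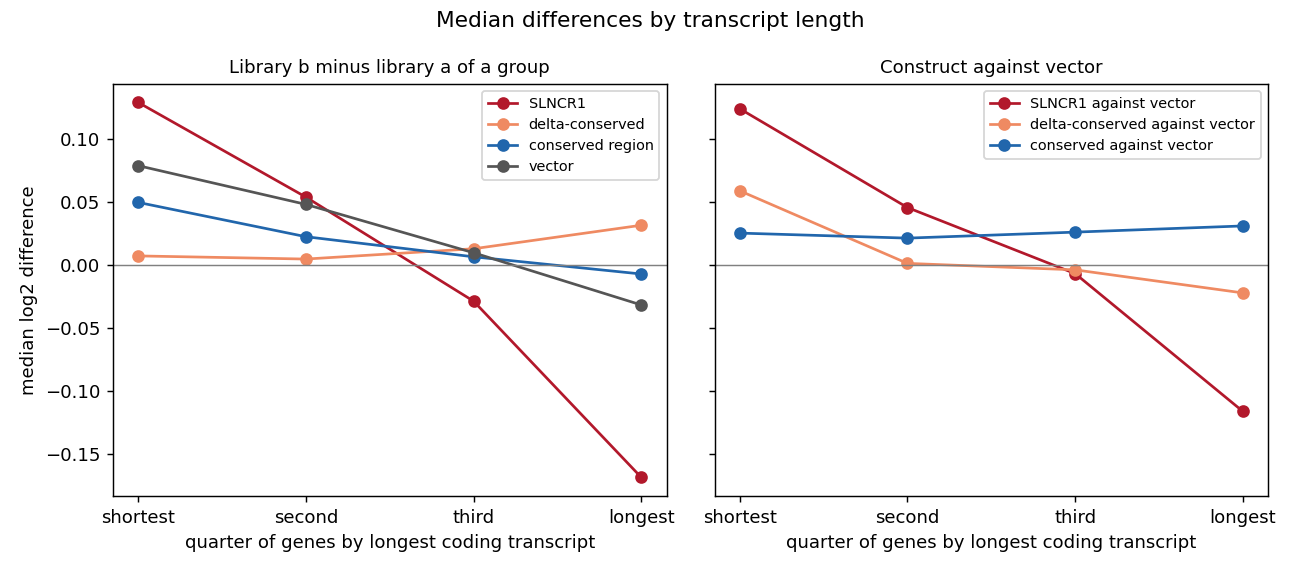
Median log2 difference (y axis) over genes in 4 groups by coding transcript length (x axis), between the libraries of a group (left) and between each construct and vector (right). The SLNCR1 lines run down from 0.13 and 0.12 in the shortest group to -0.17 and -0.12 in the longest, and the other lines lie between -0.03 and 0.08.

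The SNAI factors showed no difference that passed. SNAI1, a zinc finger repressor of CDH1 encoded on chromosome 20, was the steadiest member. It had 369 and 385 normalized counts with SLNCR1, 357 and 380.1 with delta-conserved, 378 and 380.0 with the conserved region, against 394 and 374.9 with vector. Its highest library was 1.10 times its lowest, and all groups overlapped that of vector. Against vector its log2 differences were -0.03 ± 0.09 with SLNCR1 (interval -0.21 to 0.15), -0.06 ± 0.09 with delta-conserved (interval -0.24 to 0.12) and -0.02 ± 0.09 with the conserved region (interval -0.20 to 0.16). The limma adjusted p-values were 0.74 to 0.974. SNAI2 (Slug), a neural crest factor, was close to the filter. It had 16.1 and 15.5 normalized counts with SLNCR1, 24.5 and 11.4 with delta-conserved, 16.9 and 22 with the conserved region, against 17.0 and 15.1 with vector. The delta-conserved libraries held both the highest and the lowest value. With 140 reads over 8 libraries, its intervals against vector reached from -0.79 to 0.75 with SLNCR1, -0.71 to 0.83 with delta-conserved and -0.51 to 1.02 with the conserved region. Differences within these wide intervals remain possible.

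TWIST1, a basic helix-loop-helix factor of the neural crest encoded on chromosome 7, had 249.6 and 295 normalized counts with SLNCR1, 287 and 236 with delta-conserved, 249 and 255 with the conserved region, against 250.2 and 271 with vector. All groups overlapped, and delta-conserved again spread the widest. Its log2 differences from vector were 0.06 ± 0.12, 0.00 ± 0.12 and -0.05 ± 0.12 with SLNCR1, delta-conserved and the conserved region, with limma adjusted p-values of 0.794 to 0.9996. Its paralog TWIST2, on chromosome 2, differed between constructs. It had 174 and 199.8 normalized counts with SLNCR1, 160.2 and 158 with delta-conserved, 136 in both libraries with the conserved region, against 160.3 and 180.3 with vector. The conserved-region libraries were the lowest of the 8 and SLNCR1 library b the highest. TWIST2 was 1.37-fold higher with SLNCR1 than with the conserved region (log2 0.45 ± 0.12, interval 0.19 to 0.71, limma adjusted p = 0.0248). This call was lost without SLNCR1 library b (log2 0.35, limma adjusted p = 0.188), conserved-region library a (limma adjusted p = 0.157) or its library b (limma adjusted p = 0.142). Against vector the conserved region gave -0.32 ± 0.12 (interval -0.58 to -0.06), which did not pass (limma adjusted p = 0.83, unadjusted p = 0.0201). With SLNCR1 and delta-conserved the differences from vector were 0.13 ± 0.12 (limma adjusted p = 0.528) and -0.10 ± 0.12 (limma adjusted p = 0.709).

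Neither cadherin showed a difference that passed. CDH2, the N-cadherin gene on chromosome 18, had 1783 and 1627 normalized counts with SLNCR1, 1747 and 1784 with delta-conserved, 1699.6 and 1715 with the conserved region, against 1637 and 1591 with vector. SLNCR1 overlapped vector, and the libraries of delta-conserved and the conserved region lay above both vector libraries by a small margin. The log2 differences from vector were 0.08 ± 0.07 with SLNCR1 (interval -0.06 to 0.22), 0.13 ± 0.07 with delta-conserved (interval -0.01 to 0.27) and 0.08 ± 0.07 with the conserved region (interval -0.06 to 0.22). None passed (limma adjusted p = 0.483, 0.258 and 0.85). CDH1, the E-cadherin gene on chromosome 16, had 0 reads in both SLNCR1 libraries, 0 and 1 with delta-conserved, 1 and 0 with the conserved region, and 2 in each vector library. No library exceeded the 3 reads that a count of 0 allows, which correspond to 2.43 to 3.79 normalized counts, so no difference was detectable at this depth and no fold is given. In the authors' deposited table CDH1 had an adjusted p of 1.0 in all 3 comparisons.

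**Figure D3:**
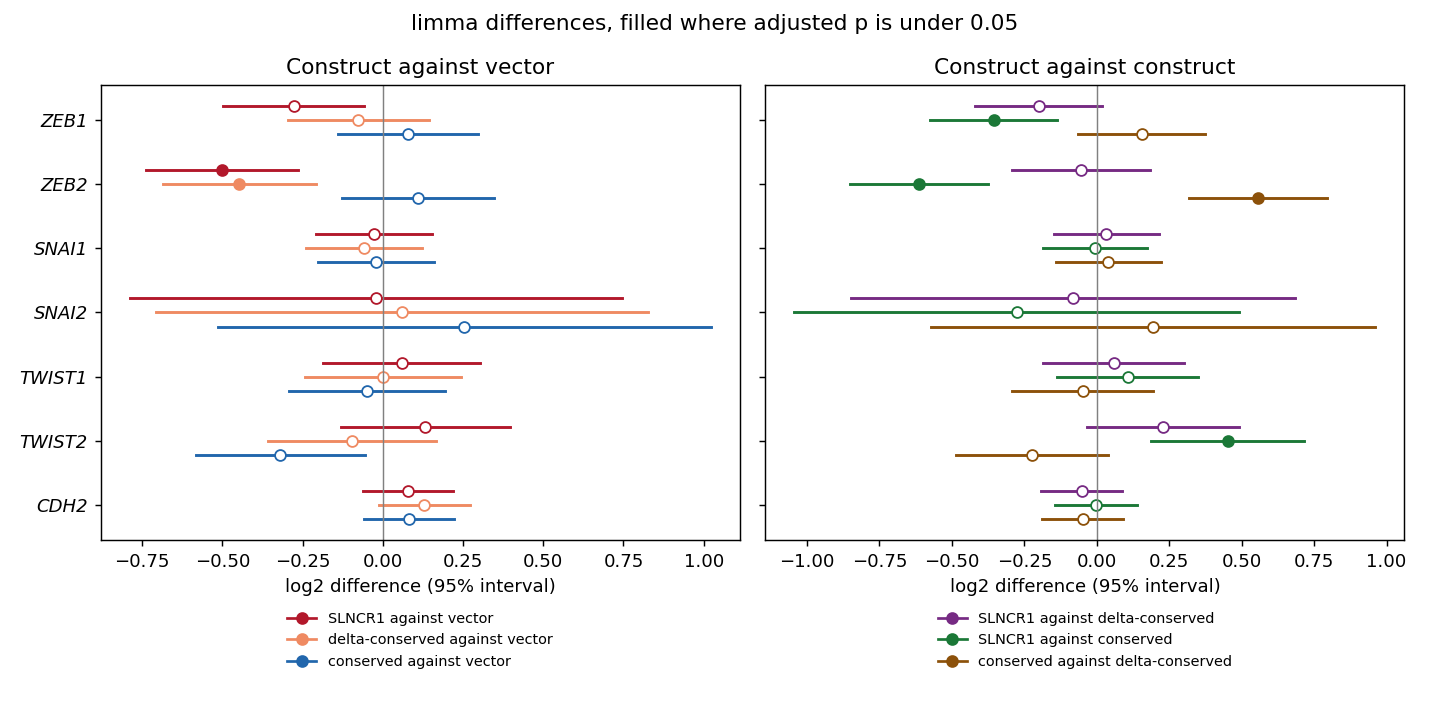
Log2 differences (x axis) with 95% intervals for the 7 genes tested, each construct against vector on the left and constructs against each other on the right, filled where limma's adjusted p was under 0.05. Filled points are ZEB2 in 4 comparisons, at -0.50, -0.45, -0.61 and 0.56, and ZEB1 at -0.36 and TWIST2 at 0.45 between SLNCR1 and the conserved region.

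Counted over the 7 tested members, 1 was called by limma with SLNCR1 and 1 with delta-conserved, both ZEB2 and both lower. Over all 16073 genes, 11.3% were called with SLNCR1 and 10.4% with delta-conserved, so 1 of 7 is close to the share of all genes. With the conserved region no member was called by limma (1 of 7, TWIST2, had an unadjusted p under 0.05, as did 874 genes), against 0.00622% of all genes. Between SLNCR1 and the conserved region 3 of 7 were called, against 11.5% of all genes. Between the conserved region and delta-conserved it was 1 of 7, against 6.89%. Between SLNCR1 and delta-conserved it was 0 of 7, against 0% (limma called no gene, and 1285 genes had an unadjusted p under 0.05). Between SLNCR1 and the conserved region, 2 were lower (9.46% of all genes) and 1 higher (2.05%). The conserved region against delta-conserved had 1 higher (5.79%) and 0 lower (1.11%). By adjusted p in the authors' deposited data, 0 of 8 members passed with SLNCR1, against 0.882% of genes (0.0388% higher and 0.844% lower). With delta-conserved 1 of 8 passed in the authors' deposited table, lower, against 2.26% of genes (1.11% higher and 1.14% lower). With the conserved region it was 0 of 8 in the authors' deposited table, against 0.0175%. The 3 comparisons with vector share the same vector libraries.

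Across the 8 libraries the ZEB genes varied together. For the 7 tested members, the most correlated genes were sought among 11174 genes with a mean of at least 50. Pearson's r of the log2 levels of ZEB1 and ZEB2 was 0.84 over the 8 libraries, which share 4 treatments and the length pattern described above. The ZEB genes ran opposite to the TWIST genes. For ZEB1, r was -0.81 with TWIST2 and -0.71 with TWIST1, and for ZEB2 it was -0.68 and -0.61. Among the genes most like ZEB1 were EML4 (r = 0.99) and DENND4C, both with their lowest normalized count in SLNCR1 library b (795 and 831). The genes most like ZEB2 were SIRT1, a deacetylase (r = 0.99), PPP4R1L and STRN3. SIRT1 had 542 and 449 normalized counts with SLNCR1, 498 and 554 with delta-conserved, 746 and 689 with the conserved region, against 672 and 633 with vector. As for ZEB2, the conserved-region libraries were highest, the vector libraries next, and all SLNCR1 and delta-conserved libraries lower. TWIST2 was most like NICN1 (r = 0.98), MED29 and FANCG, and TWIST1 most like NFYC (r = 0.99), MESP1 and ZNF428. CDH2 was most like the calcineurin gene PPP3CA (r = 0.98), DPY19L1 and INHBA. For the steady SNAI1 and the low SNAI2 the best companions were less close, with ASTE1 at 0.93, STAG3L4 and CCNB1IP1 for the one and RAPGEF6 at 0.89, APLP1 and C1orf21 for the other. These are the highest of many correlations over 8 libraries and are given as descriptions.

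Proteins that work with the repressors or turn them over were examined next. The counts of every list below are to be read against the share of all genes called by limma, which was 3.93% higher and 7.4% lower with SLNCR1 and 5.18% higher and 5.24% lower with delta-conserved. They also rest on limma's variance trend. Without it, limma called 1 gene of the 8 lists with SLNCR1 (GATA6) and 2 with delta-conserved (GATA6 and PVRL4). AJUBA then had adjusted p-values of 0.0764 and 0.0788 with SLNCR1 and delta-conserved by limma, LATS2 0.0693 and 0.108, and HMGA2 0.0788 and 0.0573. Of 21 tested partners and corepressors, limma called 1 higher and 2 lower with SLNCR1, close to the share of all genes (median log2 -0.02, against -0.00041 over all genes), and 1 higher and 2 lower with delta-conserved (median 0.07, against -0.0028). The LIM protein gene AJUBA, a SNAI corepressor, had 1380 and 1297 normalized counts with SLNCR1, 1345 and 1306 with delta-conserved, and 1777 and 2079 with vector. It fell by 0.52 (limma adjusted p = 0.000373) with SLNCR1 and by 0.54 with delta-conserved (limma adjusted p = 0.00036), and held both calls without any single library. The kinase gene NUAK1 fell by 0.55 with SLNCR1 (limma adjusted p = 0.00605) and by 0.61 with delta-conserved (limma adjusted p = 0.00324). ID1, an inhibitor of E-box factors, rose by a log2 of 0.31 (limma adjusted p = 0.0262) and 0.33 (limma adjusted p = 0.0161). The NUAK1 call was lost without vector library a with SLNCR1 (limma adjusted p = 0.118), its log2 was -0.32 without SLNCR1 library b, and with delta-conserved without vector library a (limma adjusted p = 0.0716) or delta-conserved library b (limma adjusted p = 0.0676). That of ID1 was lost without vector library a or SLNCR1 library b (limma adjusted p = 0.279 and 0.163), and, for delta-conserved, without vector library a or either of its own libraries (limma adjusted p = 0.0898 to 0.221). Without SLNCR1 library a, which left library b alone, 5 partners were higher and 3 lower.

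Of 16 tested genes for turnover and kinases of the repressors, limma called 0 higher and 3 lower with SLNCR1 and 1 higher and 2 lower with delta-conserved. LATS2, a Hippo pathway kinase that acts on SNAI1, had 832 and 648 normalized counts with SLNCR1, 778 and 806 with delta-conserved, and 1129.7 and 1228 with vector. Its log2 differences were -0.68 ± 0.09 (limma adjusted p = 0.000137) and -0.57 ± 0.09 (limma adjusted p = 0.000973), and both calls held without any single library. FBXW7, a ubiquitin ligase component, fell by 0.52 with SLNCR1 (limma adjusted p = 0.00177) and by 0.45 with delta-conserved (limma adjusted p = 0.00619), the second call being lost without vector library a (limma adjusted p = 0.0846) or delta-conserved library a (limma adjusted p = 0.0857). The third gene lower with SLNCR1 was the ligase gene FBXO45 (log2 -0.29, limma adjusted p = 0.0358), a call lost in 7 of the 8 fits without 1 library, all but the one without SLNCR1 library a (limma adjusted p = 0.0531 to 0.257). LOXL2, a lysyl oxidase that stabilizes SNAI1, was higher with delta-conserved (log2 0.21, limma adjusted p = 0.0464), and the call was lost without vector library a or any library of delta-conserved or the conserved region (limma adjusted p = 0.0882 to 0.248). The authors' deposited tables called LATS2 and FBXW7 lower with both constructs. Among 14 other EMT-linked transcription factors, the chromatin protein gene HMGA2 rose with SLNCR1 (log2 0.34, limma adjusted p = 0.00306) and delta-conserved (log2 0.40, limma adjusted p = 0.00118), and held both calls without any single library. GATA6 fell by 0.84 (limma adjusted p = 0.00124) and 0.64 (limma adjusted p = 0.00937), the second call being lost without vector library a, vector library b or delta-conserved library a (limma adjusted p = 0.0536 to 0.0788). TBX2, a repressor, fell by 0.50 with delta-conserved (limma adjusted p = 0.0023), a call held without any single library. With SLNCR1 its log2 was -0.30 (limma adjusted p = 0.0379), a call that held only without SLNCR1 library a among the 8 fits (limma adjusted p = 0.0561 to 0.228 in the others). In all, 1 of the 14 was higher and 2 lower with either construct.

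Several mesenchymal genes were higher with delta-conserved than with vector. Of 28 tested, limma called 10 higher and 1 lower (5.18% and 5.24% over all genes), with a median log2 of 0.19 against -0.0028 over all genes, and 9 were higher in the authors' deposited table. The collagen gene COL3A1 had 51.2 and 45.5 normalized counts with delta-conserved, 53.4 and 2.0 with the conserved region, against 4.05 and 3.55 with vector. With delta-conserved the groups did not overlap (log2 3.36 ± 0.80, limma adjusted p = 0.0131), while 1 of the conserved-region libraries was as high and the other as low as vector. FN1, encoding fibronectin, had 1990.5 and 1763 with delta-conserved against 1017 and 1336 with vector (log2 0.68 ± 0.13, limma adjusted p = 0.00299). SPARC rose by a log2 of 0.41 (limma adjusted p = 0.00256) and the intermediate filament gene VIM by 0.34 (limma adjusted p = 0.00698), while the smooth muscle actin gene ACTA2 fell by 0.54 (limma adjusted p = 0.0287). The 10 higher calls became 1 without vector library a, 5 without delta-conserved library a and 1 without delta-conserved library b, so the count depends on each of these libraries. It was 7 with no filter on low counts and 0 without the variance trend. Singly, COL3A1 lost its call without any of the 4 libraries compared (limma adjusted p = 0.0738 to 0.126), FN1 without vector library a or delta-conserved library a (limma adjusted p = 0.095 and 0.0501), SPARC without delta-conserved library b (limma adjusted p = 0.0682), VIM without vector library a or delta-conserved library b (limma adjusted p = 0.0907 and 0.138), and ACTA2 without vector library a, vector library b or delta-conserved library b (limma adjusted p = 0.107 to 0.332). The list of 10 fibroblast markers shares 6 of its genes with the mesenchymal list, COL3A1 among them, and includes the member TWIST2. Their summed level was 1005 to 1028 normalized counts with delta-conserved and 949.9 to 996 with vector. With SLNCR1 it was 931 to 943 and with the conserved region 840 to 1040. The part of these markers in the result was not tested.

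With SLNCR1, limma called 5 mesenchymal genes higher and 1 lower (3.93% and 7.4% over all genes, median 0.05, against -0.00041 over all genes), and the authors' deposited table none. SPARC (log2 0.30, limma adjusted p = 0.017), VIM (log2 0.29, limma adjusted p = 0.0196) and S100A4 (log2 0.27, limma adjusted p = 0.0326) were higher and ACTA2 lower (log2 -0.55, limma adjusted p = 0.0275). All 5 higher calls were lost without vector library a or without SLNCR1 library b, and the ACTA2 call without vector library a or b (limma adjusted p = 0.117 and 0.124). S100A4 was also lost without vector library b or either delta-conserved library (limma adjusted p = 0.055 to 0.0669). FN1 had 1216 and 917 normalized counts with SLNCR1 and differed from vector by -0.14 ± 0.13 (limma adjusted p = 0.502). Without SLNCR1 library a it was called lower (log2 -0.34, limma adjusted p = 0.0148). Between SLNCR1 and delta-conserved limma called 0 of the 28 mesenchymal genes (0 of all genes, 1285 at an unadjusted p under 0.05). The difference in FN1 was -0.83 ± 0.13, which did not pass (limma adjusted p = 0.0703).

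Epithelial genes were called in both directions. Of 25 tested, limma called 1 higher and 1 lower with SLNCR1 and 1 higher and 4 lower with delta-conserved, with medians of -0.05 and 0.07. With SLNCR1 that is a smaller share than the 11.3% of all genes, and it was 0 higher and 3 lower with TMM scaling or library totals. The lower genes with delta-conserved were GRHL1, an epithelial transcription factor (log2 -1.11 ± 0.23, limma adjusted p = 0.00579), the sorting adaptor gene AP1M2 (-0.47, limma adjusted p = 0.0154), the keratin gene KRT7 (-0.46, limma adjusted p = 0.0144) and the desmosomal gene PKP2 (-0.46, limma adjusted p = 0.00973). KRT18, chosen after its value was seen, was the higher one (0.34, limma adjusted p = 0.0173), and no epithelial gene was called higher without vector library a or without delta-conserved library b. Of the 4 lower calls, the fits without vector library a and without vector library b each made 1, and that without delta-conserved library a made 0. The authors' deposited table kept GRHL1 and PKP2. With SLNCR1, PKP2 was lower (-0.45, limma adjusted p = 0.0123) and the tight junction gene CLDN4 higher (0.31, limma adjusted p = 0.0431). Their calls were lost in 3 and 7 of the 8 fits without 1 library, by PKP2 without vector library a, vector library b or SLNCR1 library b and by CLDN4 in all but the one without SLNCR1 library a (limma adjusted p = 0.0528 to 0.369).

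The junction partners of the cadherins changed in part. Of 16 tested catenins and adherens junction genes, limma called 0 higher and 3 lower with SLNCR1, and 2 higher and 2 lower with delta-conserved (10.4% of all genes were called there and 11.3% with SLNCR1), as did the authors' deposited table for delta-conserved. The nectin gene PVRL4 fell by 0.78 (limma adjusted p = 0.00816) and 1.07 (limma adjusted p = 0.000871) and the catenin gene ARVCF by 0.76 (limma adjusted p = 0.00291) and 0.71 (limma adjusted p = 0.0052). The third gene lower with SLNCR1 was MLLT4, which encodes afadin (-0.34, limma adjusted p = 0.0288). The catenin genes CTNNB1 and CTNNA1 were higher with delta-conserved (log2 0.28 and 0.24, limma adjusted p = 0.0127 and 0.0326). Calls lost without 1 library were that of PVRL4 with SLNCR1 (vector library a, limma adjusted p = 0.115), those of ARVCF with delta-conserved (vector library b or delta-conserved library b, limma adjusted p = 0.0525 and 0.0889), of MLLT4 (vector library a, vector library b or SLNCR1 library b, limma adjusted p = 0.0871 to 0.268) and of CTNNB1 (vector library a or either delta-conserved library, limma adjusted p = 0.0567 to 0.172). CTNNA1 lost its call without vector library a or any library of delta-conserved or the conserved region (limma adjusted p = 0.0657 to 0.292). Among 11 other cadherins tested, the neural cadherin gene CDH8 was lower with SLNCR1 (log2 -0.87, limma adjusted p = 0.0473) and delta-conserved (log2 -0.997, limma adjusted p = 0.0268), and CDH13 was higher with delta-conserved (log2 0.23, limma adjusted p = 0.0321). No call in these 11 cadherins was left without vector library a or vector library b, in either comparison. Of 29 tested upstream signals, limma called TGFB1 higher and EGFR lower with SLNCR1 and FOSL1 higher with delta-conserved, both smaller shares than over all genes, and no call was left without vector library a. With the conserved region limma called no gene of these 8 lists against vector.

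**Figure D4:**
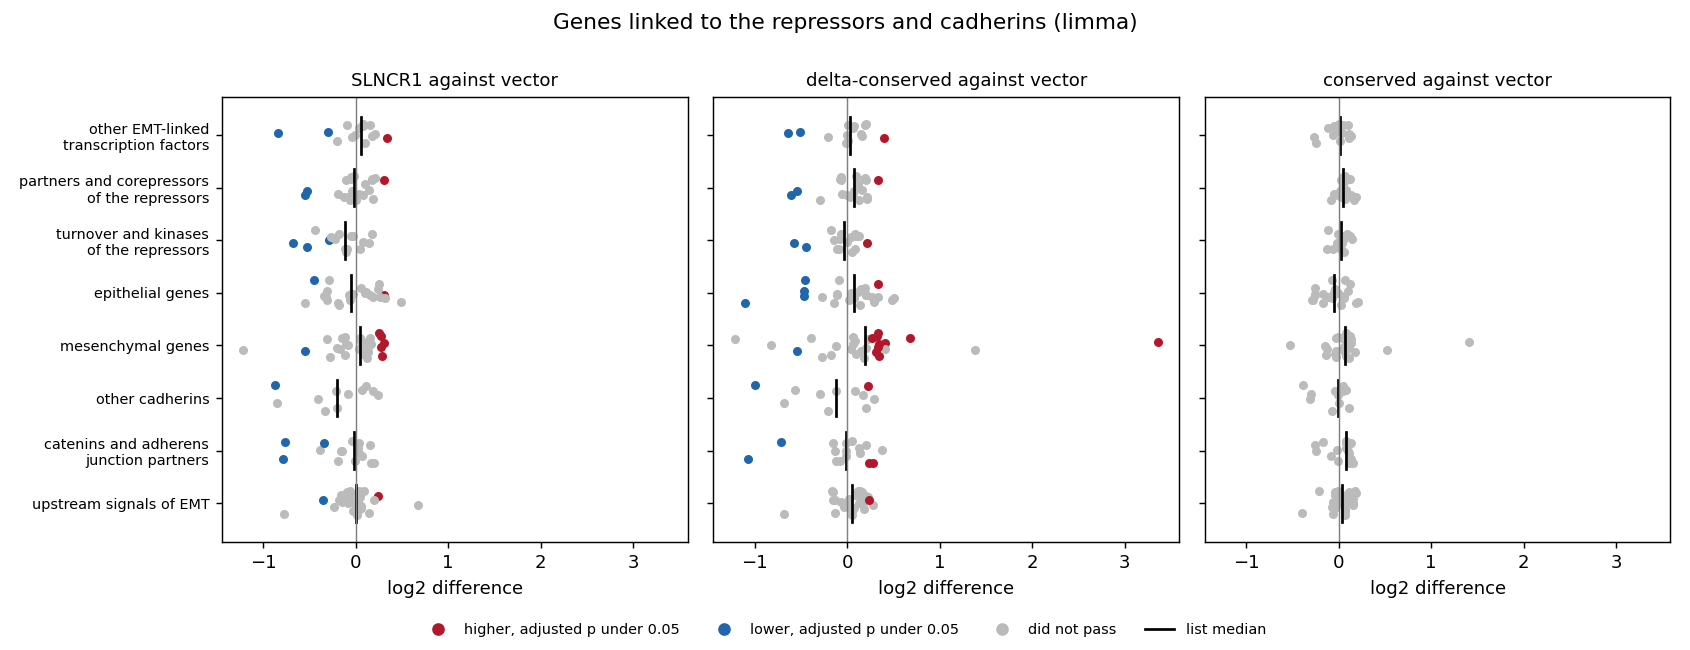
Log2 difference from vector (x axis, shared by the panels) of every tested gene in 8 lists (rows) for SLNCR1, delta-conserved and the conserved region, red where higher and blue where lower at a limma adjusted p under 0.05, grey otherwise, with a black bar at the median of the list. The mesenchymal row has 10 red points with delta-conserved and 5 with SLNCR1, and no point is coloured with the conserved region.

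Counting did not separate strands, since the library kit does not mark them. Genes on the opposite strand covered 4.23% of the merged exons of ZEB1, 5.18% of ZEB2, 6.94% of TWIST1, 5.62% of CDH1 and 2.75% of CDH2, and none of SNAI1, SNAI2 or TWIST2. The antisense gene ZEB2-AS1 had 3 reads over the 8 libraries, against 3570 for ZEB2. The antisense gene ZEB1-AS1 had 647, against 5775 for ZEB1, and its levels were 64.4 and 85.0 normalized counts with SLNCR1, 82.3 and 63.1 with delta-conserved, 82.8 and 78.0 with the conserved region, against 90.7 and 87.9 with vector. Pseudogenes took few reads, 22 for ZEB2P1 and 1 for SNAI1P1.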

How the data were processed

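Poly(A)-selected RNA of A375 cells was sequenced in 8 libraries. The submitters' processing notes name the hg19 build and the tools DESeq, featureCounts and STAR; their versions and the annotation release are not stated there. Each deposited comparison of a construct with vector holds the mean signal per gene of both groups, which the authors made as reads divided by size factors and averaged over 2 libraries. It also holds the authors' fold (construct over vector) and the authors' p-value, unadjusted and adjusted.

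The deposited means were solved for the whole reads of each library. A single solution was found for all genes with reads in the vector, SLNCR1 and delta-conserved groups and for 99.9742% of 30986 genes with the conserved region (8 genes had several or none and were not members). The solution does not tell which replicate number a library carries, so libraries are named a (deeper) and b. Recovered reads were divided by median-of-ratios size factors over all 8 libraries, and genes with a mean of at least 10 were kept. limma 3.58.1 (R 4.3.3) with a variance trend was fitted to log2(normalized count + 1) over the 4 groups (4 residual degrees of freedom, prior 13.6), with Benjamini-Hochberg adjustment over 16073 genes and a threshold of 0.05. The pseudocount makes folds of low genes too small. With 2 libraries a group, intervals rest on spread pooled over genes. Tables used Python 3.11.15, pandas 2.3.3 and numpy 2.4.6, and figures matplotlib 3.10.9. The fit was also run on simulated counts, which held no length pattern. Its outcome is not reported here and lends no support to the calls above.

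The 8 members, the gene lists and the tests were chosen with earlier results of these data known. From each list the genes named are up to 4 called ones with the largest differences in a comparison, with VIM, FN1, CTNNB1 and LINC00511 added (the genes of highest level, also in the rule, are not described), and for each member the 3 genes most correlated with it, of which 1 is not reported here. Lengths, 3′ UTRs and opposite-strand exons came from GENCODE release 29 (GRCh38), and miRNA and promoter sequences from RefSeq GRCh38.p14; no coordinate of one build was used with the other. Alternatives were other scalings, pseudocounts, filters and variance models, and leaving out each library.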

Additional observations from a re-analysis of the deposited data

Results flagged for a closer look

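Constructs that were each set against vector also differed from each other in 3 members, by limma's test of the difference itself. ZEB2 was lower with SLNCR1 than with the conserved region by a log2 of -0.61, and higher with the conserved region than with delta-conserved by 0.56. ZEB1 differed between SLNCR1 and the conserved region by -0.36 and TWIST2 by 0.45. All libraries of the groups compared were apart in these 4 comparisons, which were picked by their limma call, so this adds no support. Libraries were also apart for members that limma did not call, such as ZEB1 and ZEB2 between the conserved region and vector. The share of all genes that were apart was not worked out. The ZEB2 difference between SLNCR1 and the conserved region was called in all 8 fits that left out 1 library, and the other 3 were not, as given above. Without limma's variance trend, no difference of these was called.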

How the results depend on the processing

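No paired analysis was possible because the recovered libraries carry no replicate number. Counts of limma calls moved with single libraries, the filter and the variance trend. Over the fits without 1 library they were 317 to 4324 for SLNCR1 against vector (1821 with all libraries), 271 to 2816 for delta-conserved (1674), 0 to 16 for the conserved region (1), 0 to 1224 for SLNCR1 against delta-conserved (0), 709 to 4023 for SLNCR1 against the conserved region (1850) and 427 to 2251 for the conserved region against delta-conserved (1108). Members called were 0 to 2, 0 to 1, 0, 0 to 1, 1 to 3 and 0 to 1 in the same order. Without the filter the calls were 490, 656, 0, 888 and 601 in the order above, leaving out SLNCR1 against delta-conserved, and without the variance trend 247, 207, 0, 412 and 311. Members called were then 0 with SLNCR1 and 0 with delta-conserved against vector, 1 (no filter) or 0 (no trend) for SLNCR1 against the conserved region, and 0 (no trend) for the conserved region against delta-conserved. The cause was not tested. In the authors' deposited table of the conserved region, 6 calls became 10 both at an adjusted p under 0.1 and after a filter on the mean.

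The share of calls that were higher was 34.65% with SLNCR1 and 49.70% with delta-conserved, against 16.74% and 27.07% with TMM scaling and 26.21% and 30.22% with library totals. With library totals SNAI1 and CDH2 turned to 0.0069 and 0.0099 between SLNCR1 and the conserved region.

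Signs turned without 1 library, for differences that had not passed. Against vector the log2 ranges were -0.0600 to 0.0134 (SNAI1), -0.0999 to 0.0631 (SNAI2), -0.0645 to 0.179 (TWIST1) and -0.344 to 0.0569 (FN1) with SLNCR1, -0.461 to 0.581 (SNAI2) and -0.139 to 0.138 (TWIST1) with delta-conserved, and -0.0510 to 0.0199 (SNAI1) and -0.101 to 0.0125 (TWIST1) with the conserved region. For SLNCR1 against delta-conserved they were -0.423 to 0.0224 (ZEB1), -0.255 to 0.146 (ZEB2), -0.0137 to 0.0802 (SNAI1), -0.602 to 0.438 (SNAI2), -0.0800 to 0.196 (TWIST1) and -0.116 to 0.0124 (CDH2). For SLNCR1 against the conserved region they were -0.0358 to 0.0263 (SNAI1), -0.0116 to 0.229 (TWIST1) and -0.0672 to 0.0636 (CDH2). For the conserved region against delta-conserved they were -0.0077 to 0.0824 (SNAI1), -0.330 to 0.713 (SNAI2) and -0.191 to 0.0890 (TWIST1). Of 1128 single-gene results without 1 library, 851 kept direction and call, 244 lost the call, 3 gained one and 30 turned. Depth limits CDH1 and SNAI2.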
